A study of Homo sapiens with 12 samples.

Results

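The genes described here are 37 hypoxia-inducible and glycolysis genes, listed by symbol and matched to the symbols of the deposited table. All 37 were among its 26475 entries, and all 37 were among the 15353 genes with enough counts to be tested. They were followed across 12 RNA libraries of A375, an established human melanoma cell line grown in DMEM with serum, in groups of 3 libraries. DMSO libraries came from cells given the vehicle, XL413 libraries from cells given 1 µM of that CDC7 inhibitor, and OF1 libraries from cells given 1 µM of that inhibitor of BRPF1, BRPF2 and BRPF3. Combination libraries had 1 µM of each, and every treatment lasted 24 h. All 4 groups are a single line in ordinary culture, and no group was kept at low oxygen according to the labels. Whether the libraries of a group came from separate cultures is not given in the sources used here, so p-values cover only the variation among these libraries, which may be technical.

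Cells sense oxygen through prolyl hydroxylases (EGLN1 and EGLN3), which mark the HIF alpha subunits for destruction by the VHL ubiquitin ligase. When oxygen is short, HIF alpha pairs with ARNT and switches on genes for glucose uptake, glycolysis, acid export, blood vessel growth and mitophagy. Glycolysis splits glucose to pyruvate, and tumour cells, melanoma among them, often turn much of that pyruvate into lactate even in air.

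HIF binds a short core that reads ACGTG or GCGTG. Both spellings, on either strand, were looked for in the RefSeq promoter table (GRCh38.p14), where 33 of the 37 members had an entry. The window was the 250 bases before the start which that table gives for a gene. For some members, SLC16A3, GPI, KDM3A, PGAM1, GAPDH and PKM among them, this window lies inside the full extent of the gene. A match was present in 21 of 33 members (63.6%) and in 43.1% of the 27305 promoters of the table. ACGTG by itself was present in 14 of 33 (42.4%) and in 18.7% of all promoters. ACGTG also lies inside the E-box CACGTG, so a match is a description of the letters and not of a bound factor. The windows below belong to 4 of the members that have a match and whose RNA level changed in at least 1 comparison, and are shown so that the core can be seen in place. They are at chr9:35673678-35673927 (plus strand) for CA9, chr1:231422288-231422537 (minus strand) for EGLN1, chr2:74833877-74834126 (plus strand) for HK2 and chr17:28576896-28577145 (minus strand) for ALDOC. Each is written 5′ to 3′ along the gene, and capitals mark every match.
CA9: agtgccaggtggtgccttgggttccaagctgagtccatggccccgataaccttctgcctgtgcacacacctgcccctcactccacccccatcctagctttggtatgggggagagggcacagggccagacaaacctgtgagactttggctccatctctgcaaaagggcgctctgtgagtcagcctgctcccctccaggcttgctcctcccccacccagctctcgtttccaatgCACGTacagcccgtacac
EGLN1: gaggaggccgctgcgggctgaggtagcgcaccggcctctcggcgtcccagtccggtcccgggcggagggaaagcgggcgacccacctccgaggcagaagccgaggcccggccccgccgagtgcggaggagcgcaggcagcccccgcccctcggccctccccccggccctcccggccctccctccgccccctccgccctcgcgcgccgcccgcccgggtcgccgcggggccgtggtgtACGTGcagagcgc
HK2: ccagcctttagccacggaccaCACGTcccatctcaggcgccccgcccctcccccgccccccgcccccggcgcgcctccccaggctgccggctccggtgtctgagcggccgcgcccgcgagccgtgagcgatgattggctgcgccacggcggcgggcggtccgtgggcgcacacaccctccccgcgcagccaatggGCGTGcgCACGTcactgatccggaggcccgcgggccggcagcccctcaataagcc
ALDOC: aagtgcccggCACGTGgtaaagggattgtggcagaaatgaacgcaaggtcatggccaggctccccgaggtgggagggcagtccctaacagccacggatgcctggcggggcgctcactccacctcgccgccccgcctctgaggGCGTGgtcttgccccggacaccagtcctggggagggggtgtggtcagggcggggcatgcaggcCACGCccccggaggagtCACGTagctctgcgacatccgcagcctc
CA9 and EGLN1 had 1 run of matching letters each, HK2 had 3 and ALDOC had 4. The window of PKM, another member whose RNA fell, held neither spelling, but it lies inside the gene and not before its outermost start.

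The libraries held 30499559 to 36062138 counts each. Markers were checked first. The neural crest and melanoma factor SOX10 was at 318 to 386 CPM (the count scaled to library size, with TMM factors), while the pigment gene TYR had no count in any library, MLANA was at 0 to 0.24 CPM and PMEL at 0.33 to 1.04 CPM. Of the leukocyte markers, PTPRC and CD3E were at 0 to 0.0871 CPM and CD14 at 0.0623 to 0.839, while CD68, a lysosomal protein, was at 41.1 to 45.0 and LYZ at 5.04 to 6.87 CPM. Skeletal muscle markers were present and uneven. The summed level of 33 muscle markers was 130 to 322 CPM in DMSO, 188 to 391 in XL413, 180 to 404 in OF1 and 47.9 to 146 in the combination. The summed level of 12 fibroblast markers was 279 to 351 CPM in DMSO, 306 to 357 in XL413, 319 to 364 in OF1 and 93.9 to 218 in the combination. Of the 31 muscle markers tested, 6 fell in the combination against DMSO, 17 against XL413 and 22 against OF1, and of 12 fibroblast markers 7, 6 and 8 fell. Of all genes tested, 5.07%, 2.35% and 2.71% fell in those comparisons. Their part in the results below was not tested. Members that passed in a comparison with the combination are given below also with a muscle score as a covariate. All of these but SLC2A1 are given also with combination replicate 1 standing alone. For named genes that are no members, neither is given, so their calls are not checked in this way. The score is lowest in combination replicates 2 and 3, so it overlaps with that treatment. Fitting it widened the standard errors of most members for the combination against DMSO.

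Summed as TMM-scaled CPM, the 37 members came to 2.12% to 2.36% of the scaled size of each library. GAPDH, ENO1 and PKM made up 62.6% of that. The scaled sum was 2.30% ± 0.039 in DMSO, 2.28% ± 0.039 in XL413, 2.19% ± 0.059 in OF1 and 2.25% ± 0.11 in the combination (SD, n = 3 each). The TMM factors differ between libraries, so these are not shares of the unscaled counts. To compare genes with each other, CPM was divided by the length of the longest coding transcript in GENCODE 29, which may not be the isoform these cells use. On that scale GAPDH stood highest, at a mean of 3550 CPM per kilobase over the 12 libraries, followed by ENO1 at 1770, PKM at 1210, ALDOA at 842 and LDHB at 742. The ranges of the first 4 did not overlap, while ALDOA (781 to 898) and LDHB (686 to 804) did, as did LDHA (489 to 534) and TPI1 (449 to 541). At the low end were PDK1 (0.81 to 1.04), CA9 (0.256 to 1.26), EGLN3 (0.266 to 1.14) and CA12 (0.149 to 0.375), whose ranges overlapped in part. The rank of PDK1 rests on a length of 14.193 kilobases, the longest among the members, and it was at 11.5 to 14.8 CPM undivided.

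**Figure D1:**
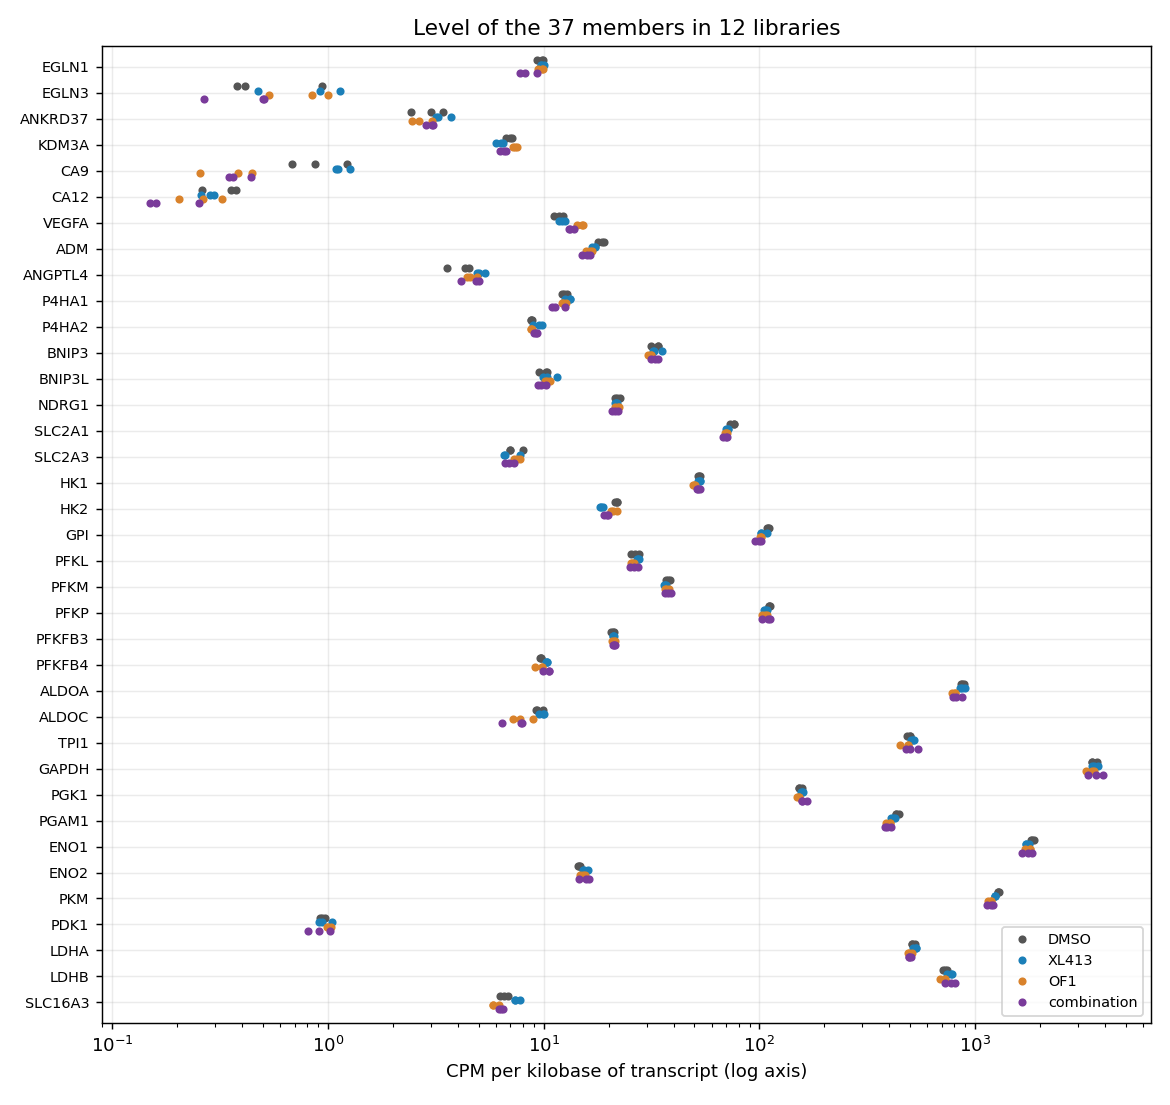
Level of each of the 37 members in every library, in CPM per kilobase of transcript on a log axis, with genes in rows and 1 point per library coloured by treatment. GAPDH sits highest, at 3250 to 3910, and CA9, CA12 and EGLN3 sit lowest, between 0.149 and 1.26, with widely spread points.

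The members also differed in how closely replicates matched. The coefficient of variation within groups was 1.14% for PFKFB3, 1.28% for HK1 and 1.71% for SLC2A1. It was 21.4% for CA12, 21.5% for CA9 and 40.4% for EGLN3, which had 33 to 82, 14 to 68 and 27 to 112 reads per library. For these 3 genes a difference of a few percent was not detectable among these libraries.

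XL413 alone changed 2 members. HK2, the inducible hexokinase, fell 14.9%, and SLC16A3, the lactate exporter also called MCT4, rose 14.1%. They were 2 of 37 members (5.41%), against 2.80% of all 15353 genes tested (1.26% risen and 1.54% fallen; edgeR quasi-likelihood test, adjusted p under 0.05). The median log2 change was 0.02 over the 37 members and 0.00 over all genes.

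OF1 alone changed 3 members. VEGFA, the vascular growth factor, rose 26%, CA9, a carbonic anhydrase of the cell surface, fell 61.1% at a low level, and PKM, pyruvate kinase, fell 8.15%. They were 3 of 37 (8.11%), against 1.15% of all genes tested (0.58% risen and 0.567% fallen). The median log2 change was -0.04 over the members and 0.00 over all genes, and 26 of 37 members had a negative value.

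The combination changed 11 members against DMSO, 10 of them downward. CA9, CA12, ADM, EGLN1, SLC2A1, HK2, GPI, ALDOC, PGAM1 and PKM fell, and VEGFA rose. They were 11 of 37 (29.7%), against 10.7% of all genes (5.65% risen and 5.07% fallen), and the 10 that fell were 27% of the members. The other 26 did not pass. In this and the other comparisons, all genes were not matched to the members for level or spread. Many members have high counts and replicates that match closely, which lets small changes pass. The members were also chosen with earlier results of these data known. Of the 11, all but CA9, CA12 and ALDOC moved by 15.2% or less, and the median log2 change was -0.04 over all 37 members and 0.00 over all genes. These 3 comparisons share the DMSO libraries, so their members are set side by side below without counting shared directions as evidence.

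Against XL413 alone, the combination had 4 members lower (CA9, EGLN1, ALDOC and SLC16A3) and none higher, 10.8% of the members against 3.41% of all genes (1.06% risen and 2.35% fallen). Against OF1 alone it had EGLN1 and KDM3A lower, 5.41% of the members against 5.50% of all genes (2.79% risen and 2.71% fallen), a share near that of all genes. Groups that did not overlap were counted as well. Against DMSO, 17 members did not overlap for XL413 (45.9%, against 27.8% of all genes), 17 for OF1 (45.9%, against 22.0%) and 14 for the combination (37.8%, against 27.6%). For OF1, 14 of these were lower, which is 37.8% of the members against 11.8% of all genes, and 3 were higher (8.11%, against 10.2%). For XL413, 10 were lower (27.0%, against 14.8%) and 7 higher (18.9%, against 13%), and for the combination 11 were lower (29.7%, against 13.8%) and 3 higher (8.11%, against 13.8%). Against XL413, 12 members of the combination did not overlap (32.4%, against 19.4% of all genes), 10 of them lower (27.0%, against 10.4%) and 2 higher (5.41%, against 8.99%). Against OF1 there were 10 (27.0%, against 22.5%), 6 lower (16.2%, against 11.3%) and 4 higher (10.8%, against 11.2%).

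**Figure D2:**
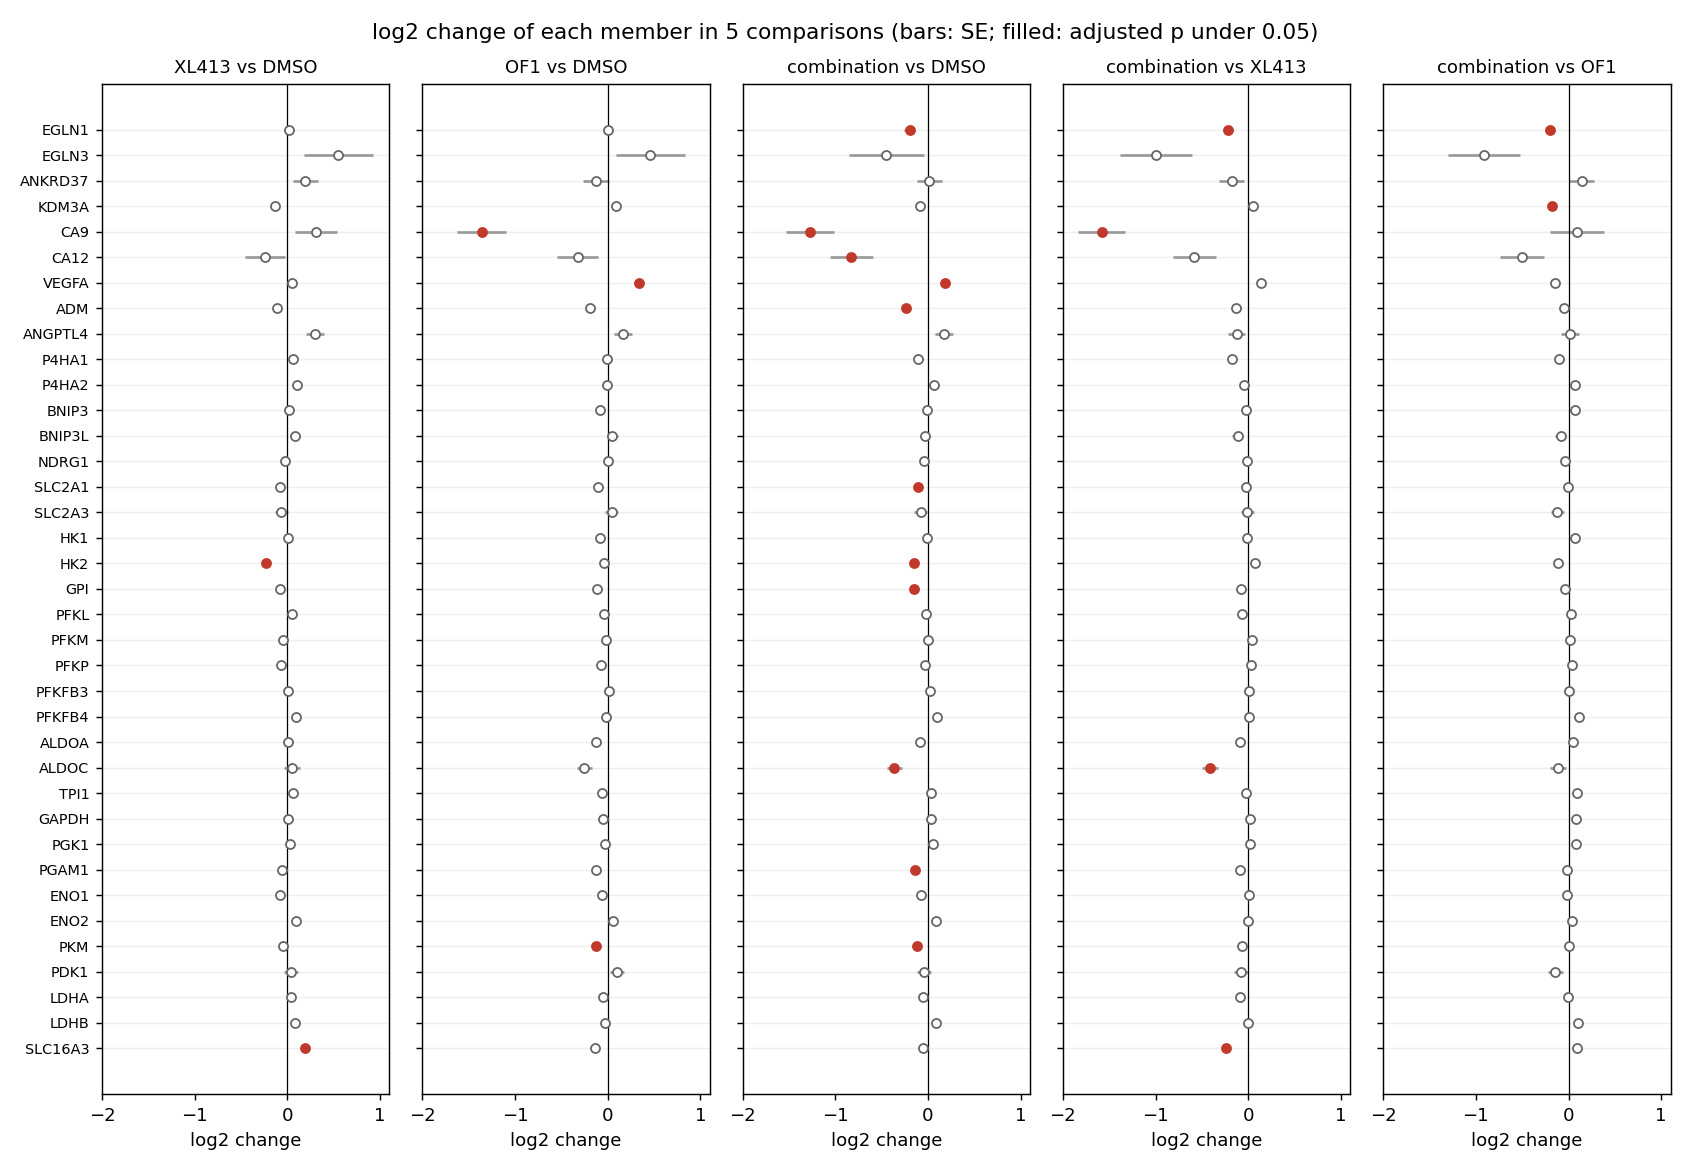
The log2 change of each member (rows) in 5 comparisons (panels), with standard errors as bars and filled points for adjusted p under 0.05. Most members lie within 0.2 of zero in every panel, 10 of the 11 filled points of the combination against DMSO lie left of zero, and the largest falls are those of CA9.

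Among secreted and surface products of the hypoxia response, CA9 and VEGFA moved in opposite directions wherever OF1 was given. CA9 (chromosome 9, 35673928 to 35681159) hydrates carbon dioxide outside the cell and helps to keep the inside from turning acid. It was at 1.41, 2.00 and 1.11 CPM in DMSO, 1.77, 2.04 and 1.79 in XL413, 0.415, 0.618 and 0.72 in OF1, and 0.714, 0.589 and 0.561 in the combination. All 6 libraries with OF1 lay below all 6 without it. The log2 change was -1.36 ± 0.26 (SE, adjusted p = 0.0237) for OF1 and -1.27 ± 0.26 (adjusted p = 0.00639) for the combination, both against DMSO, and -1.58 ± 0.25 (adjusted p = 0.00299) for the combination against XL413. Between the combination and OF1 the difference was 0.09, with a 95% interval of -0.54 to 0.71. The OF1 call was lost without DMSO replicate 1 or 2 (adjusted p = 0.0652 and 0.132, log2 change -1.41 and -1.1) and without OF1 replicate 1 or 2 (adjusted p = 0.0897 and 0.0861, log2 change -1.16 and -1.41). Both combination calls held on leaving out any single library and were lost with replicate 1 alone (-1.07 and -1.38, adjusted p = 0.122 and 0.092) and with the muscle score (-1.18 and -1.46, adjusted p = 0.102 and 0.366), as was the OF1 call with the muscle score (-1.40, adjusted p = 0.0522).

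CA12 (chromosome 15, 63321378 to 63381846), a second carbonic anhydrase of the cell surface, was at 2.28, 2.41 and 1.67 CPM in DMSO and at 1.61, 0.953 and 1.03 in the combination. XL413 had 1.65, 1.82 and 1.9 CPM, and OF1 had 2.08, 1.302 and 1.68. The combination lay wholly below DMSO and fell by 0.83 ± 0.23 on the log2 scale (adjusted p = 0.0324), while the single inhibitors overlapped with DMSO. The call was lost without DMSO replicate 1 or 2 (-0.77 and -0.73, adjusted p = 0.0875 and 0.129) and without combination replicate 2 or 3 (-0.68 and -0.74, adjusted p = 0.126 and 0.0924). With replicate 1 alone for the combination the log2 change was -0.39 (adjusted p = 0.479), and with the muscle score -0.90 (adjusted p = 0.155).

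VEGFA (chromosome 6, 43770211 to 43786487) was at 39.6, 41.5 and 43.4 CPM in DMSO and 43.0, 44.4 and 41.8 in XL413. OF1 had 50.2, 52.9 and 53.8 CPM and the combination 48.7, 46.8 and 46.4. The OF1 libraries were the highest, the combination libraries came next, and neither overlapped with the libraries that lacked OF1. The log2 change against DMSO was 0.33 ± 0.04 for OF1 (adjusted p = 0.00169) and 0.19 ± 0.04 for the combination (adjusted p = 0.0154), against 0.05 ± 0.04 for XL413 (adjusted p = 0.575). Within DMSO and within OF1 the order of the 3 libraries by VEGFA was also their order by muscle score, given with EGLN3 below. The OF1 call held under every alternative that was run, with the muscle score at 0.30 (adjusted p = 0.00375). The combination's call was lost without DMSO replicate 1 or 2 (0.15 and 0.19, adjusted p = 0.0711 and 0.0604) and held with the muscle score (0.28, adjusted p = 0.0135) and with replicate 1 alone (0.23, adjusted p = 0.0392).

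ADM (chromosome 11, 10305073 to 10307397) encodes adrenomedullin, a peptide that widens vessels. It was at 35.97, 33.7 and 35.2 CPM in DMSO, 31.8, 32.7 and 32.7 in XL413, 30.9, 29.6 and 31.5 in OF1, and 29.8, 28.3 and 31.0 in the combination. Every treated library lay below every DMSO library, but only the combination passed, with a fall of 0.24 ± 0.05 on the log2 scale (adjusted p = 0.00469). The values were -0.11 ± 0.05 for XL413 (adjusted p = 0.208) and -0.19 ± 0.05 for OF1 (adjusted p = 0.0623). The combination's call held on leaving out any library and with replicate 1 alone (-0.23, adjusted p = 0.045), and was lost with the muscle score at the same size (-0.24, adjusted p = 0.0766). ANGPTL4, a secreted regulator of lipid uptake, did not pass in any comparison. It was at 6.69 to 8.48 CPM in DMSO and 9.23 to 10.1 in XL413, without overlap (log2 change 0.30 ± 0.10, adjusted p = 0.112).

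**Figure D3:**
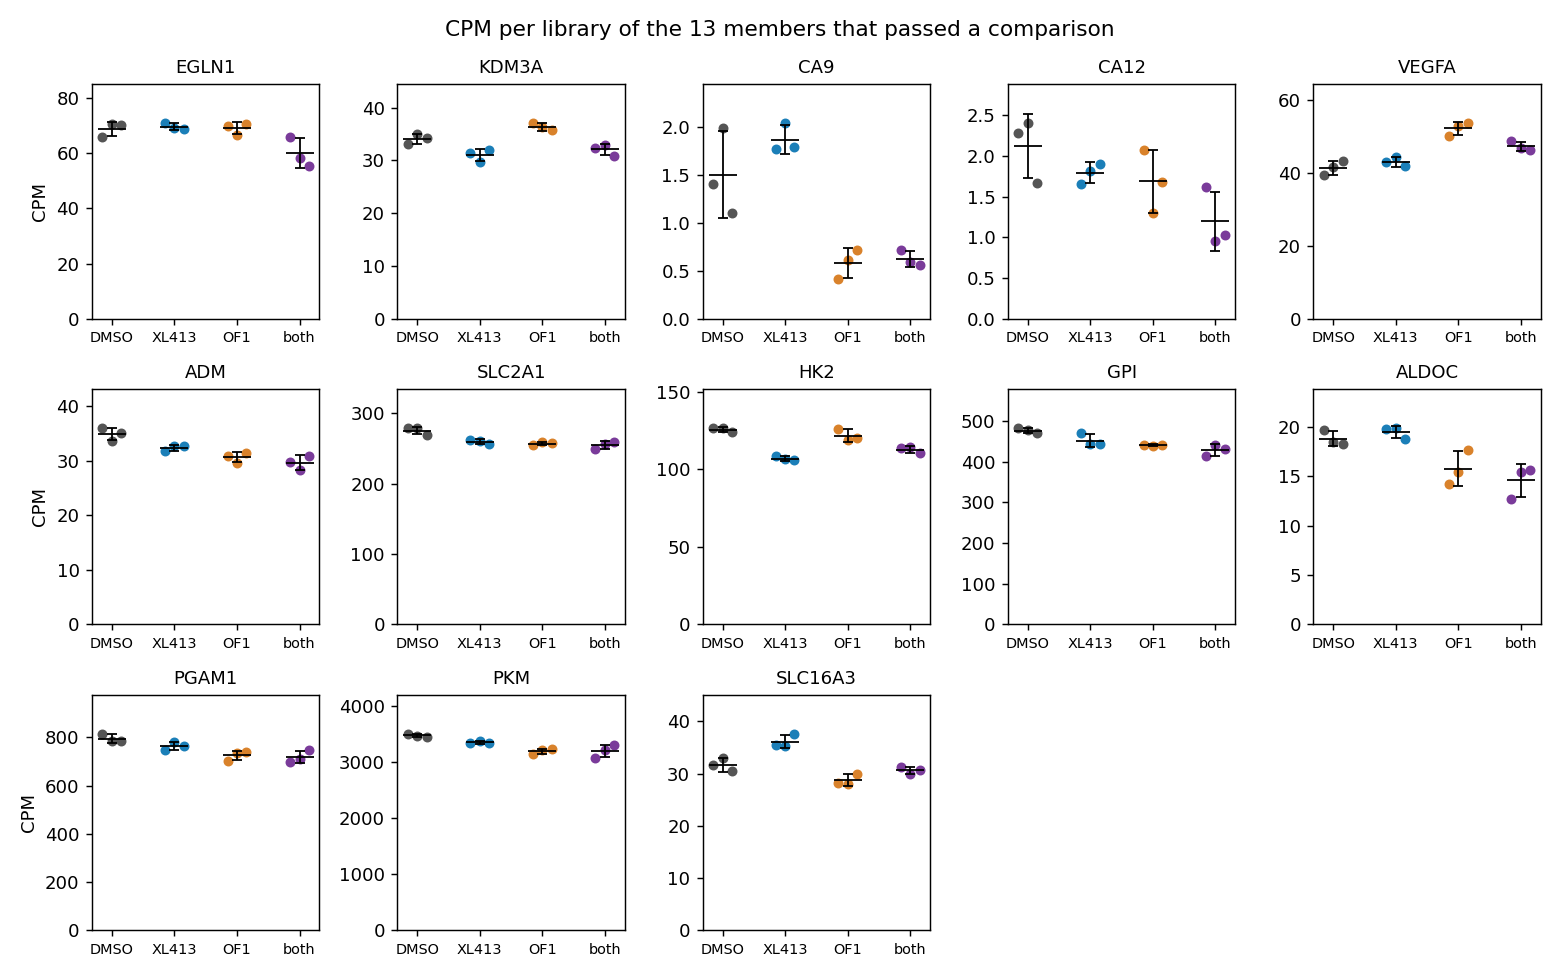
CPM (from 0) in every library for the 13 members that passed at least 1 comparison, with the mean and SD of 3 libraries in black and the combination written as both. CA9 is low in both groups with OF1, VEGFA is high in both, HK2 is low in both groups with XL413, and SLC16A3 is high in XL413 alone.

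Of the oxygen sensors and feedback genes, EGLN1 fell in the combination and EGLN3 followed the muscle transcripts from library to library. EGLN1 (chromosome 1, 231363756 to 231422287), the main HIF prolyl hydroxylase, was at 65.8, 70.3 and 70.0 CPM in DMSO, 70.9, 68.9 and 68.8 in XL413, 69.6, 66.5 and 70.6 in OF1, and 65.9, 58.3 and 55.4 in the combination. Combination replicate 1 lay within the DMSO range, and replicates 2 and 3 lay below all 10 other libraries. The log2 change was -0.20 ± 0.05 against DMSO (adjusted p = 0.0297), -0.22 ± 0.05 against XL413 (adjusted p = 0.0409) and -0.20 ± 0.05 against OF1 (adjusted p = 0.0415). With replicate 1 alone it was -0.06, -0.08 and -0.07 (adjusted p = 0.585, 0.493 and 0.68), and with the muscle score -0.11, -0.10 and -0.08 (adjusted p = 0.449, 0.944 and 0.901). The call against DMSO was lost without DMSO replicate 2 or 3 or combination replicate 2 or 3 (-0.18, -0.19, -0.18 and -0.15, adjusted p = 0.118, 0.104, 0.108 and 0.0906). The calls against XL413 and OF1 were lost on leaving out any library except combination replicate 1 (-0.23 to -0.16, adjusted p = 0.0757 to 0.18).

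EGLN3, a second HIF prolyl hydroxylase that is itself a HIF target, is also known from differentiating muscle. It was at 1.08, 1.17 and 2.66 CPM in DMSO, 3.25, 2.62 and 1.34 in XL413, 1.51, 2.41 and 2.85 in OF1, and 1.43, 0.757 and 1.43 in the combination. The muscle score, the mean log2 CPM of 31 tested muscle markers, was 0.97, 1.49 and 2.31 in DMSO, 2.65, 2.21 and 1.42 in XL413, 1.48, 2.46 and 2.64 in OF1, and 1.05, -0.58 and -0.02 in the combination. The 5 libraries with a score above 2 were the 5 with the most EGLN3. EGLN3 passed in no comparison (log2 change 0.55 ± 0.37 for XL413, 0.46 ± 0.38 for OF1 and -0.45 ± 0.40 for the combination, against DMSO). With the muscle score as a covariate these values became 0.17 ± 0.21, 0.02 ± 0.22 and 0.74 ± 0.30 (adjusted p = 0.747, 0.985 and 0.247), so the direction for the combination turned. In bulk RNA, more cells of a kind and more RNA per cell cannot be told apart, and which cells carried EGLN3 was not tested.

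**Figure D4:**
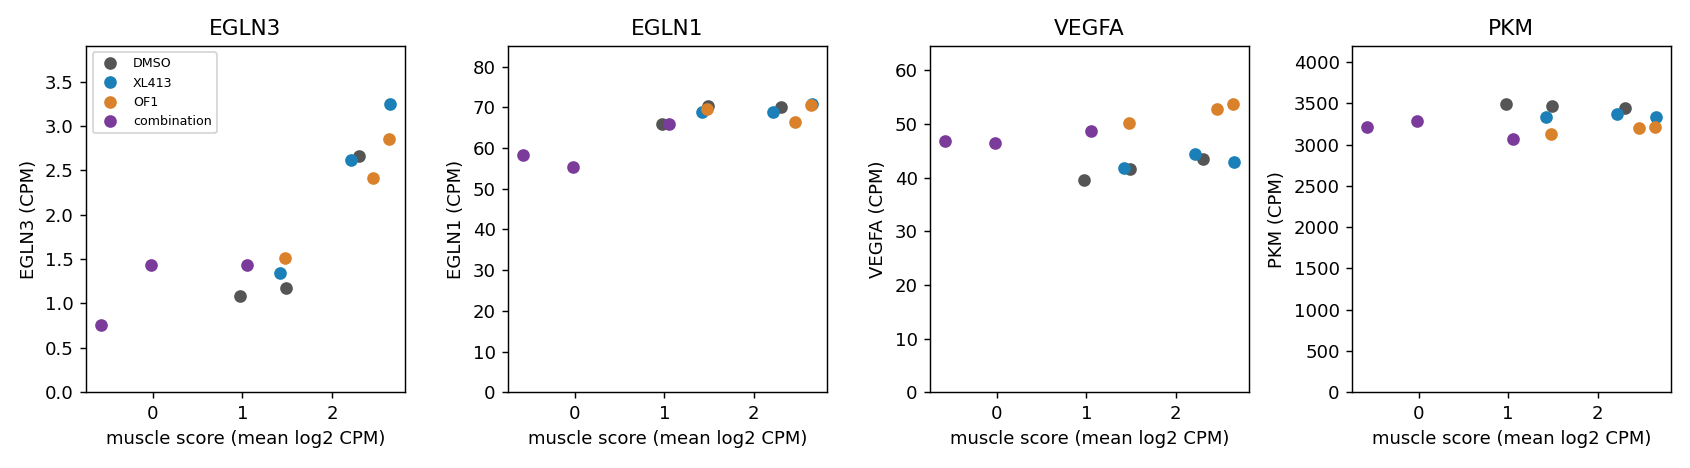
CPM of EGLN3, EGLN1, VEGFA and PKM (y axes, from 0) against the muscle score in mean log2 CPM (x axes), 1 point per library coloured by treatment. EGLN3 is highest in the 5 libraries with a score above 2, EGLN1 is lowest in the 2 combination libraries with the lowest scores, and VEGFA is above all libraries without OF1 in the 6 libraries with it, at low and high scores.

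KDM3A (chromosome 2, 86437044 to 86492716), a histone demethylase induced by HIF, was at 37.1, 36.4 and 35.7 CPM in OF1 and 32.4, 33.0 and 30.9 in the combination. DMSO had 33.1, 35.0 and 34.3 CPM and XL413 31.4, 29.7 and 32.0. The OF1 libraries were the highest of the 4 groups, and the combination fell by 0.18 ± 0.04 against them on the log2 scale (adjusted p = 0.0305). Without any one OF1 library the adjusted p was 0.0981, 0.0842 and 0.0552 (log2 change -0.17, -0.18 and -0.20), without combination replicate 2 or 3 it was 0.0695 and 0.0881 (-0.20 and -0.16), with replicate 1 alone 0.296 (-0.17), and with the muscle score 0.63 (-0.21). Against DMSO it did not pass for any treatment. ANKRD37, an ankyrin repeat protein and HIF target, was at 2.76 to 4.24 CPM over the 12 libraries and did not pass in any comparison.

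The collagen prolyl hydroxylases and the mitophagy and stress targets did not pass in any comparison. P4HA1 and P4HA2, the catalytic subunits that let collagen fold, were at 31.0 to 37.9 and 29.2 to 32.8 CPM. P4HA1 was at 35.5, 32.3 and 31.0 CPM in combination replicates 1, 2 and 3 (log2 change against XL413 -0.17 ± 0.05, adjusted p = 0.0843), so it was lower in the 2 libraries in which EGLN1 was low. BNIP3 and BNIP3L, outer membrane receptors that mark mitochondria for removal, were at 87.3 to 101 and 34.0 to 41.6 CPM. NDRG1, a widely used hypoxia marker, was at 77.7 to 84.9 CPM, and its log2 change against DMSO was -0.02 ± 0.04 for XL413, 0.00 ± 0.04 for OF1 and -0.04 ± 0.04 for the combination. The 95% interval for OF1 was -0.07 to 0.08, so a change of NDRG1 as large as that of VEGFA lay outside it.

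Of the genes for glucose entry, SLC2A1 (chromosome 1, 42925353 to 42958868), the glucose transporter GLUT1, was at 279, 279 and 269 CPM in DMSO. It was at 262, 261 and 256 CPM in XL413, 254, 260 and 257 in OF1, and 249, 257 and 260 in the combination. All 9 treated libraries lay below the DMSO libraries, and the 3 treatments overlapped with each other. The log2 change was -0.11 ± 0.03 for the combination (adjusted p = 0.0274), -0.09 ± 0.03 for XL413 (adjusted p = 0.134) and -0.10 ± 0.03 for OF1 (adjusted p = 0.125), and only the first passed. It was lost without DMSO replicate 1 or 2 (adjusted p = 0.0806 and 0.106, log2 change -0.10 for both) or combination replicate 2 (-0.12, adjusted p = 0.0593), and with the muscle score (-0.13, adjusted p = 0.146). The other transporter, SLC2A3 (GLUT3), was at 25.7 to 31.3 CPM and passed nowhere. Per kilobase it stood at 0.0919 to 0.112 of the SLC2A1 level.

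HK2 (chromosome 2, 74834127 to 74893359) was the member most clearly lowered by XL413. It phosphorylates glucose, is bound to mitochondria and is the hexokinase that many tumours induce. It was at 126, 126 and 124 CPM in DMSO and at 109, 106 and 106 in XL413. OF1 had 126, 119 and 120 CPM, and the combination 114, 114 and 110. Both groups with XL413 lay below both groups without it, with no overlap. The log2 change against DMSO was -0.23 ± 0.03 for XL413 (adjusted p = 0.00203), -0.16 ± 0.03 for the combination (adjusted p = 0.00818) and -0.04 ± 0.03 for OF1 (adjusted p = 0.578). Between the combination and OF1 it was -0.11 ± 0.03 and missed the threshold (adjusted p = 0.0632). The XL413 call held under every alternative that was run, with log2 changes of -0.25 to -0.23. The combination's call held on leaving out any library and was lost with the muscle score (-0.17, adjusted p = 0.0703) and with replicate 1 alone (-0.14, adjusted p = 0.0881).

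HK1, the constitutive hexokinase, did not pass in any comparison, at 197 to 213 CPM. Its log2 change with XL413 was 0.01, with a 95% interval of -0.05 to 0.07, which excludes a fall of the size seen for HK2. The ratio of HK2 to HK1, both per kilobase, was 0.412 to 0.416 in DMSO, 0.344 to 0.355 in XL413, 0.417 to 0.436 in OF1 and 0.367 to 0.383 in the combination. GPI (chromosome 19, 34359718 to 34402413), which turns glucose phosphate into fructose phosphate, was at 482, 478 and 469.9 CPM in DMSO and 413, 442 and 432 in the combination. XL413 had 469.7, 444 and 443 CPM, and OF1 441, 438 and 442. All 9 treated libraries lay below the lowest DMSO library (469.9 CPM), XL413 replicate 1 only just, and the combination fell by 0.15 ± 0.03 on the log2 scale (adjusted p = 0.00992). That call held on leaving out any library and with replicate 1 alone (-0.21, adjusted p = 0.00885), and missed the threshold with the muscle score (-0.17, adjusted p = 0.0675).

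The phosphofructokinases, which commit sugar to glycolysis, did not pass the test in any comparison. PFKP, the platelet type, led at 103 to 112 CPM per kilobase, followed by PFKM, the muscle type, at 36.2 to 38.8 and PFKL, the liver type, at 25 to 27.7, with no overlap between them. The log2 changes against DMSO ran from -0.07 to 0.05. PFKM was at 117 to 125 CPM in all 12 libraries, and in the 2 combination libraries with the lowest muscle scores it was at 121 and 125. Of the muscle isoenzymes among the markers, which are not members, ENO3 ranged from 2.59 to 6.84 CPM. PGAM2 ranged from 1.46 to 2.53 CPM and PYGM from 0.14 to 0.447 CPM. Which cells carried PFKM was not tested. PFKFB3 and PFKFB4 make and remove the sugar phosphate that activates phosphofructokinase. They were at 92.8 to 96.6 and 32.8 to 38.2 CPM and passed nowhere. The log2 change of PFKFB3 against DMSO was 0.01 for XL413, 0.02 for OF1 and 0.02 for the combination, each with a standard error of 0.03.

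In lower glycolysis, 3 of the 9 members fell in the combination (ALDOC, PGAM1 and PKM), 1 of them also fell with OF1 (PKM), and 6 passed nowhere. Of all genes, 5.07% fell in the combination and 0.567% with OF1. ALDOC (chromosome 17, 28573120 to 28576895), the aldolase of brain, was at 19.7, 18.5 and 18.3 CPM in DMSO, 19.8, 19.9 and 18.8 in XL413, 14.3, 15.4 and 17.7 in OF1, and 12.7, 15.5 and 15.7 in the combination. All libraries with OF1 lay below all libraries without it. The log2 change was -0.36 ± 0.08 for the combination against DMSO (adjusted p = 0.0143), -0.41 ± 0.08 against XL413 (adjusted p = 0.0153), and -0.25 ± 0.08 for OF1 against DMSO (adjusted p = 0.172), which did not pass. The call against DMSO held on leaving out any library and was -0.56 with replicate 1 alone (adjusted p = 0.00739). The call against XL413 was lost without XL413 replicate 1 or 2 (-0.40 for both, adjusted p = 0.0661 and 0.065), held with replicate 1 alone (-0.61, adjusted p = 0.011), and both were lost with the muscle score (-0.40 and -0.46, adjusted p = 0.103 and 0.452). The ratio of ALDOC to ALDOA, the main aldolase, both per kilobase, was 0.00815 to 0.0114 over the 12 libraries. ALDOA did not pass in any comparison, at 1433 to 1488 CPM in DMSO, 1306 to 1356 in OF1 and 1314 to 1446 in the combination (log2 change for OF1 -0.13 ± 0.03, adjusted p = 0.0997).

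PGAM1 (chromosome 10, 97426191 to 97433444), phosphoglycerate mutase, was at 815, 787 and 783 CPM in DMSO, 746, 781 and 764 in XL413, 704, 735 and 739 in OF1, and 698, 712 and 747 in the combination. PKM (chromosome 15, 72199029 to 72231591), which makes pyruvate, was at 3497, 3464 and 3445 CPM in DMSO, 3332, 3366 and 3333 in XL413, 3131, 3208 and 3220 in OF1, and 3067, 3216 and 3292 in the combination. For both genes every treated library lay below every DMSO library, and for PKM those with OF1 lay lowest of all. PGAM1 fell by 0.15 ± 0.03 on the log2 scale in the combination (adjusted p = 0.0137), with -0.13 ± 0.03 for OF1 (adjusted p = 0.08). PKM fell by 0.12 ± 0.03 with OF1 (adjusted p = 0.043) and by 0.12 ± 0.03 in the combination (adjusted p = 0.0123). Both combination calls held on leaving out any library, that of PGAM1 at an adjusted p of up to 0.05. With replicate 1 alone the log2 changes were -0.19 and -0.18. Both calls were lost with the 6 compared libraries alone, and with the muscle score at log2 changes of -0.16 and -0.14 (adjusted p = 0.0999 and 0.0772). The OF1 call of PKM was lost on leaving out any of the 6 libraries (-0.13 to -0.11, adjusted p = 0.0761 to 0.148) and with the muscle score (-0.11, adjusted p = 0.136). It was also lost with no filter on low counts and with the replicate block. GENCODE 29 names 13 pseudogenes for PGAM1, 5 for PKM and 62 for GAPDH, and how reads were divided between such copies and their parent genes is not given in the sources used here.

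The remaining enzymes of this stretch passed nowhere. Their coefficient of variation within groups was 4.94% for GAPDH and 4.18% for TPI1, wider than that of PKM (2.0%). GAPDH was at 6550 to 6884 CPM in DMSO and 6287 to 7331 in the combination (log2 change 0.03 ± 0.05, 95% interval -0.07 to 0.13). ENO1, the main enolase, was at 4262 to 4381 CPM in DMSO, 4033 to 4148 in XL413 and 4017 to 4200 in OF1, with a log2 change of -0.08 ± 0.03 for XL413 (adjusted p = 0.205). ENO2, the neuronal enolase, was at 40.9 to 45.7 CPM. TPI1 (triose phosphate isomerase) and PGK1 (phosphoglycerate kinase, which makes ATP) were at 791 to 953 and 731 to 814 CPM. The highest value of each of these 2 genes was in combination replicate 3.

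At the fate of pyruvate, SLC16A3 was the member that rose with XL413. SLC16A3 (chromosome 17, 82217934 to 82240086) carries lactate out of glycolytic cells. It was at 31.6, 33.1 and 30.5 CPM in DMSO, 35.4, 35.4 and 37.6 in XL413, 28.2, 27.95 and 29.99 in OF1, and 31.3, 29.96 and 30.7 in the combination. The XL413 libraries were the 3 highest of the 12, the OF1 libraries lay below DMSO, and the combination overlapped with DMSO. The log2 change was 0.19 ± 0.05 for XL413 against DMSO (adjusted p = 0.0414) and -0.24 ± 0.05 for the combination against XL413 (adjusted p = 0.012), with -0.14 ± 0.05 for OF1 against DMSO (adjusted p = 0.171). The XL413 call was lost on leaving out any of the 6 libraries (0.16 to 0.22, adjusted p = 0.0731 to 0.175) and with the muscle score (0.19, adjusted p = 0.0756). The call of the combination against XL413 was lost without combination replicate 2 (-0.22, adjusted p = 0.0748), with replicate 1 alone (-0.21, adjusted p = 0.145) and with the muscle score (-0.25, adjusted p = 0.466). In GENCODE 29 an exon of CSNK1D lies on the opposite strand over exons of SLC16A3, and whether strand was used in counting is not given in the sources used here. VEGFA, SLC2A1, HK2 and ALDOC also have an antisense transcript over their exons, and SLC2A1 and GPI share exon sequence with a transcript on their own strand.

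LDHA and LDHB, the subunits of lactate dehydrogenase, and PDK1, the kinase that holds pyruvate back from mitochondria, passed nowhere. LDHA was at 1229 to 1268 CPM in DMSO and 1193 to 1212 in the combination, without overlap (log2 change -0.05 ± 0.03, adjusted p = 0.274). LDHB was at 1093 to 1136 CPM in DMSO, 1142 to 1199 in XL413 and 1115 to 1237 in the combination. The ratio of LDHB to LDHA per kilobase was 1.39 to 1.42 in DMSO, 1.44 to 1.46 in XL413, 1.4 to 1.46 in OF1 and 1.46 to 1.6 in the combination. PDK1 was at 11.5 to 14.8 CPM, with its lowest value in combination replicate 3.

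Whether the 2 inhibitors added up on the log2 scale was tested for every gene with edgeR, and none of the 37 members and none of the 15353 genes passed (0% of all genes). At an unadjusted p under 0.05 there were 5 members (VEGFA, EGLN1, EGLN3, P4HA1 and HK2) and 1566 genes (10.2%). DESeq2 called 109 genes and no member. For VEGFA the log2 change of the combination minus the sum of those of the inhibitors was -0.20 ± 0.06 (adjusted p = 0.253), and for HK2 it was 0.12 ± 0.05 (adjusted p = 0.354). Without combination replicate 1, EGLN1 was called.

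The genes that control HIF were also measured. HIF1A, which encodes the main oxygen-regulated subunit, was at 258 to 265 CPM in DMSO, 242 to 255 in XL413, 259 to 275 in OF1 and 236 to 261 in the combination. EPAS1, which encodes the second alpha subunit, was at 4.80 to 7.70 CPM, ARNT at 32.8 to 39.8 CPM and VHL at 56.5 to 70.0 CPM over the 12 libraries. None of these 4 genes passed in any comparison, and HIF alpha subunits are set mainly by protein stability, which RNA does not show. Of 16 tested HIF pathway regulators, EP300 and CREBBP, histone acetyltransferases that serve as HIF coactivators, fell with XL413, and these genes and CITED2 fell in the combination. That is 12.5% with XL413, against 2.80% of all genes, and 18.8% in the combination, against 10.7%. EP300 was at 62.9 to 65.0 CPM in DMSO and 51.8 to 57.6 in XL413 (log2 change -0.24, adjusted p = 0.0264). CREBBP was at 72.5 to 74.3 CPM in DMSO and 60.7 to 65.4 in XL413 (-0.24, adjusted p = 0.0411). CITED2, which competes with HIF for those coactivators, was at 49.5 to 50.9 CPM in DMSO and 39.8 to 43.6 in the combination (-0.28, adjusted p = 0.00169). None of the 16 passed with OF1 alone. Against OF1 the combination had CITED2 lower and 1 gene higher (TCEB2, which encodes elongin B, a partner of VHL), which is 12.5%, against 5.50% of all genes. Against XL413 it had CITED2 lower, which is 6.25%, against 3.41% of all genes.

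Of 28 other hypoxia-induced genes tested, 1 rose with XL413 (PLOD1), none passed with OF1, and 1 rose (STC2) and 4 fell (BHLHE40, AK4, CCNG2 and LOX) in the combination, against DMSO. The 5 were 17.9% of the list, against 10.7% of all genes, and the 1 with XL413 was 3.57%, against 2.80%. LOX, which cross-links collagen, was at 15.4 to 21.9 CPM in DMSO and at 15.8, 4.20 and 5.89 in combination replicates 1, 2 and 3. Its replicate 1 lay within the DMSO range, and the fibroblast marker COL1A1 was likewise lower in replicates 2 and 3 (19.4 and 28.4 CPM) than in replicate 1 (52.7 CPM), whose part in the fall of LOX was not tested. STC2, a secreted glycoprotein, rose by 0.36 on the log2 scale in the combination (54.7 to 58.9 CPM in DMSO, 68.7 to 79.5 in the combination, adjusted p = 0.000779). BHLHE40, a transcriptional repressor, was at 16.1 to 17.5 CPM in DMSO and 13.2 to 14.6 in the combination (-0.26, adjusted p = 0.0129). CCNG2, which encodes an unconventional cyclin, was at 10.4 to 11.3 CPM in OF1 and 7.45 to 9.04 in the combination (-0.45, adjusted p = 0.00844). Against OF1 the combination had 3 of the 28 lower (CCNG2, ERO1A and LOX) and 1 higher (PLOD1), 14.3%, against 5.50% of all genes. Against XL413 it had 1 higher (STC2), 3.57%, against 3.41% of all genes. The median log2 change of these 28 genes in the combination was -0.02 against DMSO.

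Around glycolysis, few of the other glycolytic, glycogen and glucose-regulating genes passed. Of 25 tested, 1 passed with XL413 (PYGB, 4% against 2.80% of all genes), 1 with OF1 (GYS1, 4% against 1.15%) and 2 in the combination (GYS1 and PGM2, 8% against 10.7%), each against DMSO. GYS1, glycogen synthase, was at 104 to 109 CPM in DMSO, 94.4 to 98.3 in OF1 and 94.4 to 96.4 in the combination, with log2 changes of -0.14 (adjusted p = 0.0418) and -0.16 (adjusted p = 0.00583). PYGB, the brain glycogen phosphorylase, was at 780 to 792 CPM in DMSO, 701 to 718 in XL413, 847 to 860 in OF1 and 769 to 830 in the combination. It fell with XL413 (-0.14, adjusted p = 0.0238) and was higher in the combination than in XL413 (0.18, adjusted p = 0.00515). PGM2, a phosphoglucomutase, rose in the combination (0.13, adjusted p = 0.0113). The glycogen genes PYGL, PYGM and UGP2 did not pass in any comparison. Of 29 genes of pyruvate entry and the citric acid cycle, none passed with either inhibitor alone, and 2 rose (SDHC and MPC2) and 3 fell (CS, PC and PDP1) in the combination (17.2%, against 10.7% of all genes), with the succinate dehydrogenase subunit SDHC at 0.17 (adjusted p = 0.0165) and citrate synthase, CS, at -0.11 (adjusted p = 0.0314). PDP2, a phosphatase that activates pyruvate dehydrogenase, was lower in the combination than in OF1 (-0.22, adjusted p = 0.0183). None of 8 pentose phosphate genes passed in any comparison.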

How the data were processed

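Poly(A) RNA of A375 cells was sequenced in 12 libraries, 3 per treatment, grouped by sample title. The authors deposited a table of expected counts, that is estimated reads per gene, often fractional and unscaled. The submitters' processing notes name Bowtie2 2.1.0, RSEM 1.2.15 and hg38 but no settings. The libraries kept strand, per the labels' protocols, while neither the annotation nor the strand setting of the counting is stated in those sources. Of the values 10.6% were not whole, and all were rounded.

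edgeR 4.0.16 in R 4.3.3 was fitted to all 12 libraries with 1 mean per group, after filterByExpr and TMM scaling, which left 8 residual degrees of freedom. The quasi-likelihood F test was used with Benjamini-Hochberg adjustment over all 15353 genes and a threshold of 0.05. Standard errors were taken as the size of the log2 change over the root of F. CPM values use TMM library sizes. Replicates of a group differed beyond sampling noise (chi-square over its degrees of freedom 2.33 to 13.95). The common biological coefficient of variation was 0.0487.

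The 6 comparisons were each treatment against DMSO, the combination against each inhibitor, and non-additivity. The members and lists were chosen with earlier results of these data known. Every member was followed, those that passed a comparison are given by library, and of other genes HIF1A, EPAS1, ARNT and VHL were named with up to 3 per list of smallest adjusted p. ENO3, PGAM2, PYGM, TCEB2, PLOD1, AK4, LOX, ERO1A, MPC2, PC and PDP1 fall outside that rule and were named after their values were seen. Positions are from RefSeq on GRCh38.p14 and lengths from GENCODE 29. Alternatives were DESeq2 1.42.0, RLE or upper-quartile factors, no filter, a CPM of at least 1 in 3 libraries, the replicate number as a block, the muscle score as a covariate, replicate 1 alone for the combination, the 6 compared libraries alone, and leaving out each library. The fit was also run on simulated counts with known changes in XL413 against DMSO. These counts held no change in the combination and no uneven muscle or fibroblast transcripts, so that run does not bear on either.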

Additional observations from a re-analysis of the deposited data

How the results depend on the processing

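The counts of members called stayed within 1.5 times the values above with RLE factors, with no filter and with the CPM filter. Upper-quartile factors left 1 member for the combination against OF1, KDM3A, in place of 2. With the muscle score as a covariate, 1 member remained called for XL413 (HK2), 1 for OF1 and 1 for the combination against DMSO (VEGFA in both), and 0 for the combination against XL413 or OF1, in place of 2, 3, 11, 4 and 2. Genes called in all fell with it from 1645 to 307 for the combination against DMSO. Combination replicates 2 and 3 had the lowest scores (-0.58 and -0.018), so score and treatment overlap. For HK2 in the combination against DMSO the log2 change was -0.156 ± 0.033 without the score and -0.174 ± 0.046 with it. A call lost with the score thus does not by itself tell a smaller change from a loss of precision. Replicate 1 alone for the combination left 1 member against XL413 (ALDOC) and 0 against OF1. The 6 compared libraries alone gave 5 members for OF1, 6 for the combination against DMSO and 0 against OF1. Lost with them were CA12, EGLN1, SLC2A1, PGAM1 and PKM against DMSO, EGLN1 against XL413, and EGLN1 and KDM3A against OF1. DESeq2 gave 5 for OF1, without CA9, for which it gave no adjusted p there. The call sets of the 6 libraries and DESeq2 added ALDOA and PGAM1 for OF1, and DESeq2 added GPI. The cause was not tested.

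Leaving out 1 library gave 1 member in each of 6 settings for XL413, 1 to 2 for OF1, 7 to 13 for the combination against DMSO, 2 to 6 against XL413, 0 to 9 against OF1 and 0 to 1 for non-additivity. The 9 came without combination replicate 1 and the 13 as well, while the 7 came without DMSO replicate 2. Over all alternatives, the 22 calls of single members were kept in 235 refits, lost in 88 and reversed in 0.

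Same-numbered libraries of different groups showed no shared deviation (median correlation -0.041 over 18 pairs, and 1 of 12 libraries correlated best with its own number). With 3 libraries per group, this check cannot exclude that they were prepared in numbered sets. With the replicate block, 1 member was called for XL413, as SLC16A3 was lost, and the counts were 2, 11, 3, 2 and 0 in the other comparisons. CA9, CA12 and EGLN3 had the fewest reads per library and the widest spread within groups.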
